A study of Mus musculus with 12 samples.

Results

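The 10 genes Asns, Phgdh, Psat1, Psph, Shmt2, Mthfd2, Aldh1l2, Aldh18a1, Pycr1 and Cth encode enzymes that make asparagine, serine, proline and cysteine or carry carbon units on mitochondrial folate. They were picked by symbol as amino acid and folate enzymes known as targets of the transcription factor ATF4. All 10 were among the 23336 gene symbols of the deposited count table, and all 10 passed the low-count filter that left 11561 genes for testing. The counts come from RNA-seq of the established mouse melanoma line B16, in 4 groups of 3 libraries. Adar-null cells carried Adar sgRNA 1 and were kept for 36 h with either 1000 U/mL of interferon-beta (IFNb) or its vehicle, buffered saline containing albumin. Control cells carried Non-targeting sgRNA 5 and received the same IFNb dose or vehicle for the same time. Cells of both genotypes had been given Cas9 and a guide by transient transfection and were then subcloned, so each genotype rests on 1 guide and its subcloned cells. Whether the 3 libraries of each group stem from separate cultures is not stated, so the p-values cover the scatter of these libraries alone, and that scatter may be technical.

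Total counts per library ran between 5375649 and 7153480, and Rn45s, the ribosomal RNA precursor, took 21.1% to 28.5% of them. That share was higher with IFNb, at 25.8% to 28.5% in Adar-null and 24.9% to 25.3% in control cells. With vehicle it was 21.1% to 22.9% in Adar-null and 21.5% to 22.4% in control cells. All 7 melanocyte markers were detected in every group. Their summed level was 10400 to 11100 CPM (read counts put on the same scale across libraries, with TMM factors) in IFNb-treated Adar-null cells, 15300 to 15400 CPM in vehicle-treated Adar-null cells, 13400 to 13700 CPM in IFNb-treated control cells and 15600 to 16500 CPM in vehicle-treated control cells. Leukocyte markers summed to at most 0.66 CPM, with Cd3e at 0 in all groups. Endothelial markers summed to at most 1.7 CPM and epithelial markers to at most 4.28 CPM, with Epcam, Krt8 and Krt18 at 0 in all groups. Fibroblast markers summed to 16.6 to 24.5 CPM in Adar-null cells and 9.44 to 18.6 CPM in control cells. When Rn45s was left out of the counts, the only call of a member to change was the vehicle difference of Phgdh (adjusted p = 0.049, edgeR). Beyond that, the part that these marker levels or the Rn45s share have in the results below was not tested. Adar itself averaged 408 ± 21.2 CPM in IFNb-treated Adar-null cells, 59.5 ± 5.26 CPM in vehicle-treated Adar-null cells, 384 ± 7.47 CPM in IFNb-treated control cells and 72.2 ± 2.05 CPM in vehicle-treated control cells (SD, n = 3 each), and with vehicle it was lower in Adar-null cells (log2 difference -0.28 ± 0.06, adjusted p = 0.0017, edgeR). Counts over a whole gene do not read the edited site, so they are no check of the deletion.

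ATF4 is a transcription factor whose protein is made more efficiently when kinases that sense stress, amino acid shortage or double-stranded RNA phosphorylate the translation factor eIF2alpha. It is known to switch on genes for amino acid uptake and synthesis, often through a C/EBP-ATF response element near the gene's start. Adar edits double-stranded RNA, and IFNb is a type I interferon that signals through its receptor and JAK-STAT proteins. Serine made from glucose supplies carbon units to mitochondrial folate, which in turn feeds the making of purines, thymidylate and methionine.

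The promoters of the 10 genes were searched on both strands for TGATGNAA, the core of that response element. RefSeq promoter windows of 300 bases (GRCm38.p6) were available for 8 of the genes, with 2 windows for Psat1, and 1 window each of Asns and Pycr1 held a match, so 2 of 9 windows (22.2%). Of all 32851 windows in the same table, 1304 (3.97%) held one. The matches are shown in capitals in the gene-strand sequence, because they are the only ones among the member genes searched. A match is a description of letters and not of binding, and the absence of a match in the other 6 genes refers to these windows alone.
Asns, chr6:7693160-7693459, minus strand: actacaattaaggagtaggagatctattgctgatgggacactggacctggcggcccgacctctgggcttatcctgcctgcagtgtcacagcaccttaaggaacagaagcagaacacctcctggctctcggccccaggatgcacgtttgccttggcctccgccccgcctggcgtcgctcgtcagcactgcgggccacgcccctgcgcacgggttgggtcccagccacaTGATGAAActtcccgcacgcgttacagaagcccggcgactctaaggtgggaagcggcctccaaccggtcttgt
Pycr1, chr11:120643699-120643998, minus strand: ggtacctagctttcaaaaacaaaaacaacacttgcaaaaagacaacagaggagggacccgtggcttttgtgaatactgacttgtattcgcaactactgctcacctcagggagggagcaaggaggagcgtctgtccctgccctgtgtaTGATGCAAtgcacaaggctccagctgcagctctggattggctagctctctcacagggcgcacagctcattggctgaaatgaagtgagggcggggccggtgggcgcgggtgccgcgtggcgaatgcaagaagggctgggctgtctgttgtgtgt
In Asns the first base of TGATGAAA lies 23 bases before the RefSeq start, and in Pycr1 the first base of TGATGCAA lies 103 bases before it.

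With IFNb, 7 of the 10 enzyme mRNAs fell in Adar-null cells, Aldh1l2 rose, and Pycr1 and Cth did not pass the test. Of all tested genes, 35.7% were called lower and 36.6% higher there. Tested against a change of at least 1.5-fold, 3 were called lower in Adar-null cells, Psat1, Shmt2 and Mthfd2, while Asns, Phgdh, Psph and Aldh18a1 were not (adjusted p = 1 for each, edgeR). Of all 11561 tested genes, 1784 were called lower in Adar-null cells by that test. In control cells all 10 fell, where 26.5% of all tested genes did, and each fell further than in Adar-null cells. The levels left in control cells ran between 9.72% (Aldh1l2) and 38.0% (Psat1) of vehicle. Together the 10 genes held 2655 ± 56.6 CPM in IFNb-treated Adar-null cells and 3314 ± 63 CPM in vehicle-treated Adar-null cells, so 80.1% of the vehicle level. The same sum was 687 ± 11.3 CPM in IFNb-treated control cells and 3155 ± 62.9 CPM in vehicle-treated control cells, or 21.8% (SD, n = 3 each). Such a sum weighs abundant genes most. In Adar-null cells it includes the rise of Aldh1l2, from 399.6 CPM with vehicle to 647.6 CPM with IFNb, which offsets part of the other falls. In bulk RNA, fewer cells with a transcript and less transcript per cell cannot be told apart.

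**Figure D1:**
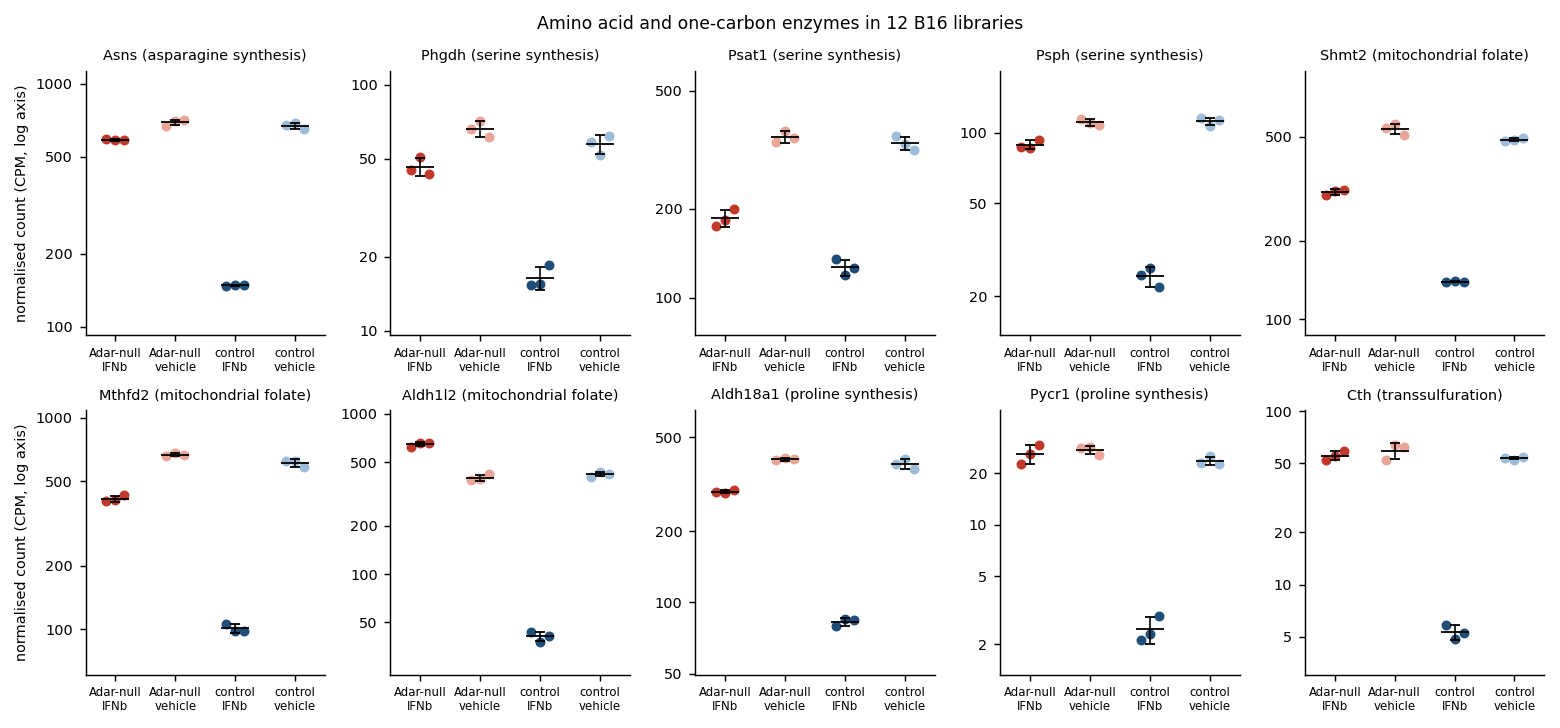
Normalised count (CPM, log axis) of each of the 10 enzyme genes in the 12 libraries; points are libraries, horizontal lines group means and bars the SD of 3 libraries. In every panel the 3 IFNb-treated control libraries lie below all 9 other libraries, and for Aldh1l2 the 3 IFNb-treated Adar-null libraries lie above all others. How many of all tested genes separate in these ways is not given here.

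Asns, on chromosome 6 from 7675169 to 7693254 (GRCm38, as for all positions here; all 10 genes are on the minus strand), encodes asparagine synthetase, which makes asparagine from aspartate and glutamine. It had 594, 587 and 584 CPM in the IFNb-treated Adar-null libraries and 671, 699 and 707 CPM in the vehicle-treated Adar-null libraries. In the control libraries it had 148, 148 and 149 CPM with IFNb and 678, 688 and 649 CPM with vehicle. The IFNb libraries were thus below the vehicle libraries in both genotypes, by a narrow gap in Adar-null cells and a wide one in control cells. The log2 fold change of IFNb over vehicle was -0.23 ± 0.04 in Adar-null cells and -2.18 ± 0.04 in control cells (± SE; edgeR quasi-likelihood test, Benjamini-Hochberg adjusted p = 5.01e-08 and 1.1e-77). The residual level was 85.0% (95% interval 80.6% to 89.6%) of vehicle in Adar-null cells and 22.1% (95% interval 20.8% to 23.4%) in control cells. The gap between the genotypes under IFNb was 1.99 ± 0.04, and the difference between the 2 responses, the interaction, was 1.94 ± 0.06 on the log2 scale (adjusted p = 1.34e-58).

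The 3 genes of serine synthesis fell in both genotypes, and Psat1 stood out as the member whose fall differed least between them. Phgdh, on chromosome 3 from 98313170 to 98339990, encodes phosphoglycerate dehydrogenase, which draws a glycolytic intermediate into the pathway. Its level was 45.1, 50.8 and 43.5 CPM in IFNb-treated Adar-null cells, 66.3, 71.5 and 61.5 CPM in vehicle-treated Adar-null cells, 15.3, 15.4 and 18.4 CPM in IFNb-treated control cells and 58.5, 52.1 and 61.8 CPM in vehicle-treated control cells. Each IFNb group lay wholly below its own vehicle group. The log2 change with IFNb was -0.52 ± 0.08 in Adar-null cells and -1.80 ± 0.10 in control cells. Of the words of 37 bases (the read length) in Phgdh transcripts, 53.7% also occur in transcripts of other genes, chiefly the loci Gm7901, Gm9347 and Gm8341, for which no counts were used here. The level of Phgdh is therefore uncertain to the extent that reads were divided or dropped there.

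Psat1, on chromosome 19 from 15904678 to 15947337, encodes phosphoserine aminotransferase, which takes its nitrogen from glutamate. It had 175, 183 and 199 CPM in IFNb-treated Adar-null libraries, against 335, 366 and 346 CPM in vehicle-treated Adar-null libraries. Control libraries had 135, 119 and 126 CPM with IFNb and 351, 331 and 315 CPM with vehicle. Both falls were clear of the replicate spread, at -0.91 ± 0.05 in Adar-null cells and -1.40 ± 0.05 in control cells on the log2 scale. The interaction was 0.48 ± 0.07 (adjusted p = 2.39e-09, edgeR). Tested against a change of at least 1.5-fold, neither the interaction (adjusted p = 1) nor the Adar-null excess under IFNb (0.56 on the log2 scale, adjusted p = 0.953) of Psat1 was called. Over the alternatives the adjusted p ran from 2.54e-11 to 1 for the interaction and from 3.03e-25 to 0.953 for the excess.

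Psph, on chromosome 5 from 129765558 to 129787449, encodes phosphoserine phosphatase, the enzyme that releases serine. Its level was 86.5, 86.3 and 93.2 CPM in IFNb-treated Adar-null cells, 115, 109.6 and 108 CPM in vehicle-treated Adar-null cells, 24.8, 26.5 and 21.9 CPM in IFNb-treated control cells and 115, 107 and 113 CPM in vehicle-treated control cells. The IFNb-treated control libraries formed a low group of their own, while the IFNb-treated Adar-null libraries came close to the vehicle libraries without overlapping them. The log2 responses were -0.32 ± 0.06 in Adar-null cells and -2.20 ± 0.08 in control cells, with an interaction of 1.88 ± 0.10. Cct6a, a chaperonin subunit gene on the opposite strand, overlaps 26.1% of the exon bases of Psph. Cct6a was at 0.11 ± 0.05 (adjusted p = 0.0594, edgeR) in Adar-null cells, which did not pass, and rose in control cells (0.19 ± 0.05, adjusted p = 0.00125). Cct6a had 13228 counts over all 12 libraries, and Psph had 465 in the IFNb-treated control group alone. Whether reads from the overlap add to that low group was not tested.

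In the mitochondrial folate branch, Shmt2 and Mthfd2 fell in both genotypes, and Aldh1l2 changed in opposite directions in them. Shmt2, on chromosome 10 from 127517123 to 127522444, encodes serine hydroxymethyltransferase, which moves a carbon unit from serine to folate and leaves glycine. It had 298, 310.4 and 314 CPM in IFNb-treated Adar-null libraries and 539, 561 and 509.7 CPM with vehicle. In control libraries it had 139, 139.9 and 139.6 CPM with IFNb and 481, 489 and 496 CPM with vehicle. Its response, -0.80 ± 0.04 in Adar-null cells and -1.81 ± 0.05 in control cells, differed between the genotypes by 1.01 ± 0.06 (adjusted p = 4.95e-30, edgeR).

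Mthfd2, on chromosome 6 from 83305691 to 83325908, encodes the methylenetetrahydrofolate dehydrogenase and cyclohydrolase that oxidises this unit towards formate. Its level was 405, 411 and 430.3 CPM in IFNb-treated Adar-null cells, 662, 681 and 665 CPM in vehicle-treated Adar-null cells, 106, 97.5 and 98.4 CPM in IFNb-treated control cells and 627, 623 and 582 CPM in vehicle-treated control cells. Both genotypes fell, to 62.0% (95% interval 58.6% to 65.6%) of vehicle in Adar-null cells and to 16.5% (95% interval 15.5% to 17.5%) in control cells. The interaction was 1.91 ± 0.06 on the log2 scale.

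Aldh1l2, on chromosome 10 from 83487450 to 83534140, encodes the mitochondrial formyltetrahydrofolate dehydrogenase, which releases the unit as carbon dioxide and yields NADPH. It had 624, 660.4 and 658 CPM in IFNb-treated Adar-null libraries, against 388, 392.1 and 419 CPM in vehicle-treated Adar-null libraries. In control libraries it had 43.6, 37.9 and 41.4 CPM with IFNb and 406, 431 and 423 CPM with vehicle. The IFNb-treated Adar-null libraries were the highest of the 12 and the IFNb-treated control libraries the lowest, with no overlap. Aldh1l2 rose in Adar-null cells (log2 fold change 0.70 ± 0.04, adjusted p = 4.98e-31, edgeR) and fell in control cells (-3.36 ± 0.06, adjusted p = 6.23e-87). Under IFNb it was 15.9-fold higher in Adar-null than in control cells, and its interaction of 4.06 ± 0.07 ranked 56 from the top among 11561 genes. D10Wsu102e, on the opposite strand, overlaps 17.3% of its exon bases and had log2 responses of 0.19 ± 0.08 in Adar-null cells and 0.68 ± 0.08 in control cells. D10Wsu102e had 3793 counts over all 12 libraries, and Aldh1l2 had 777 in the IFNb-treated control group alone. Whether reads from the overlap add to that low group was not tested.

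For proline, Aldh18a1 and Pycr1 encode the first and last enzymes of the route from glutamate, pyrroline-carboxylate synthase and mitochondrial pyrroline-carboxylate reductase. Aldh18a1, on chromosome 19 from 40550257 to 40588463, had 294, 289.8 and 298 CPM in IFNb-treated Adar-null cells, 398, 408 and 402 CPM in vehicle-treated Adar-null cells, 79.2, 85.0 and 83.8 CPM in IFNb-treated control cells and 387, 402 and 366 CPM in vehicle-treated control cells. It fell in both, by a log2 change of -0.45 ± 0.04 in Adar-null cells and -2.22 ± 0.05 in control cells. Pycr1, on chromosome 11 from 120635712 to 120643769, was the member with the lowest level per kilobase of exon in every group. Its level was 22.5, 26.0 and 29.3 CPM in IFNb-treated Adar-null cells and 28.1, 28.6 and 25.7 CPM in vehicle-treated Adar-null cells, and these libraries overlap. In control libraries Pycr1 had 2.14, 2.29 and 2.94 CPM with IFNb, which are 12, 16 and 19 counts, and 22.8, 25.1 and 22.8 CPM with vehicle. The log2 response of Pycr1 was -0.08 ± 0.11 in Adar-null cells (adjusted p = 0.52, edgeR; 95% interval -0.29 to 0.13) and -3.25 ± 0.23 in control cells (adjusted p = 3.51e-33). The interaction was 1.76 ± 0.07 for Aldh18a1 and 3.17 ± 0.25 for Pycr1.

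Cth, on chromosome 3 from 157894248 to 157925077, encodes cystathionine gamma-lyase, the transsulfuration enzyme that releases cysteine. It had 52.5, 54.9 and 59.2 CPM in IFNb-treated Adar-null libraries and 52.2, 63.5 and 62.0 CPM in vehicle-treated Adar-null libraries, which overlap. IFNb-treated control libraries had 5.88, 4.86 and 5.27 CPM, which are 33, 34 and 34 counts, against 53.8, 52.6 and 54.4 CPM in vehicle-treated control libraries. The log2 response was -0.10 ± 0.08 in Adar-null cells (adjusted p = 0.244, edgeR; 95% interval -0.24 to 0.05) and -3.33 ± 0.16 in control cells, where the level was 9.93% (95% interval 8.01% to 12.3%) of vehicle. Its interaction was 3.24 ± 0.17 (adjusted p = 7.86e-40). The Adar-null fall of Cth passed the edgeR test with library size alone as the scaling (-0.19, adjusted p = 0.0214) and without the first Adar-null vehicle library (-0.18, adjusted p = 0.0455). Its adjusted p ran up to 1 over the alternatives, which include the stricter test against a change of 1.5-fold.

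The counts of members called are set here beside those of all genes. In Adar-null cells, 7 members were lower and 1 higher, where 35.7% of all tested genes were called lower and 36.6% higher, and the members' median log2 change was -0.39 against 0.01 over all genes. In control cells 10 of 10 were lower against a background of 26.5%, and all 10 fell at least 2-fold against a background of 2.77%, with a median of -2.21 against 0.00 over all genes tested (-0.00493). Ranked from the strongest fall in control cells among 11561 genes, Aldh1l2 was 16, Cth 17, Pycr1 19, Mthfd2 29, Aldh18a1 42, Psph 45, Asns 47, Shmt2 76, Phgdh 77 and Psat1 156.5. Ranks in the Adar-null response were far from that end for every member, and the lowest was 1546 for Psat1. For the interaction, 10 of 10 were higher against a background of 28.6%, and 9 of 10 by at least 2-fold against 7.86%. Psat1 was the member below 2-fold. Shmt2 lay at that line, with an interaction of 1.01 ± 0.06 on the log2 scale. When single libraries were left out, the Shmt2 value ran from 0.968 to 1.038, so its place above 2-fold is not secure.

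**Figure D2:**
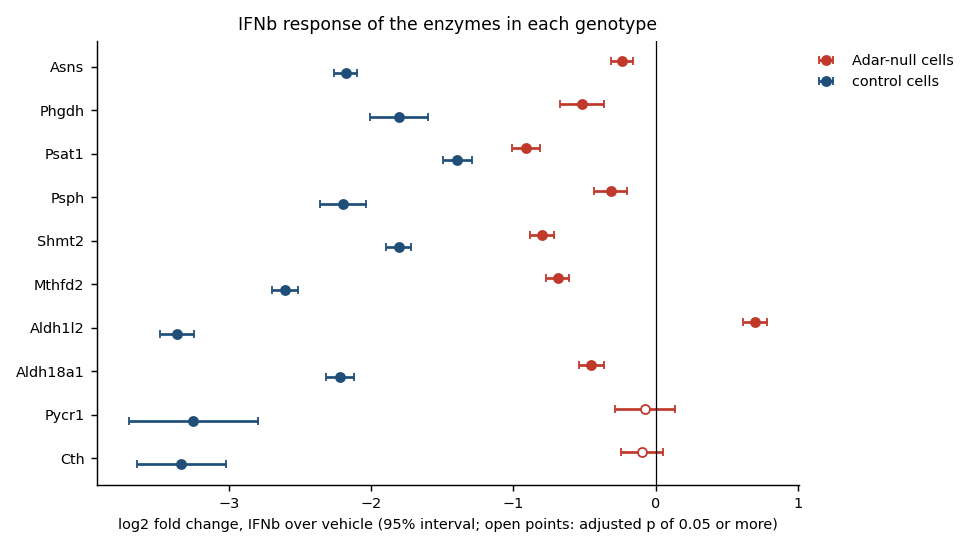
Log2 fold change of IFNb over vehicle for the 10 genes, with 95% intervals, in Adar-null and in control cells. Adar-null values run between -0.91 and 0.70, and control values between -3.36 and -1.40; the intervals of the 2 genotypes do not overlap for any gene.

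The members kept different shares of the control response in Adar-null cells. As a percentage of the control log2 change, the Adar-null log2 change was 65.3% for Psat1, 44.4% for Shmt2, 28.8% for Phgdh, 26.5% for Mthfd2, 20.5% for Aldh18a1, 14.5% for Psph and 10.8% for Asns. It was 2.89% for Cth and 2.38% for Pycr1, neither of which passed the test in Adar-null cells, and -20.7% for Aldh1l2, which moved the other way. The 3 genes with the deepest falls in control cells, Aldh1l2, Cth and Pycr1, are thus those with no called fall in Adar-null cells.

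Under IFNb, Adar-null cells exceeded control cells in all 10 genes, where 36.4% of tested genes were called higher, and in 9 of 10 by at least 2-fold, where 8.75% were. The log2 differences were 3.99 ± 0.06 for Aldh1l2, 3.39 ± 0.23 for Pycr1, 3.39 ± 0.16 for Cth, 2.05 ± 0.05 for Mthfd2 and 1.86 ± 0.08 for Psph. They were 1.83 ± 0.05 for Aldh18a1, 1.503 ± 0.11 for Phgdh, 1.14 ± 0.05 for Shmt2 and 0.56 ± 0.05 for Psat1. This comparison, the 2 responses and the interaction share libraries, so they are views of the same values and not separate support.

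Without IFNb the genotypes differed little. With vehicle, 2 of 10 members were called higher in Adar-null cells, where 2.47% of tested genes were. These were Shmt2 (log2 difference 0.14 ± 0.04, adjusted p = 0.0267, edgeR) and Mthfd2 (0.13 ± 0.04, adjusted p = 0.0264). Neither call held under every alternative. With no low-count filter the adjusted p was 0.0627 for Shmt2 and 0.0621 for Mthfd2. Over all alternatives it ran from 0.00871 to 1 for Shmt2 and from 0.00674 to 1 for Mthfd2, with 1 in the test against 1.5-fold. Leaving out either the first (adjusted p 0.0978 and 0.0636) or the second (0.226 and 0.128) Adar-null vehicle library, or the second control vehicle library (0.0989 and 0.0599), ended the calls of Shmt2 and Mthfd2. Leaving out the first control vehicle library ended that of Shmt2 alone (0.113), and leaving out the third that of Mthfd2 alone (0.181). Phgdh, at 0.22 ± 0.07 (adjusted p = 0.0575), was called under other scalings (adjusted p 0.0469 with RLE, 0.0479 with upper quartile and 0.049 with Rn45s left out). It was also called with only the 2 vehicle groups in the fit (0.048), and without the third Adar-null vehicle library (0.0279) or the third control vehicle library (0.0307), and its adjusted p reached 1 against 1.5-fold. The vehicle values of the 2 genotypes did not overlap for Shmt2, Mthfd2 and Pycr1, all higher in Adar-null cells, against a background of 10.5%. The unadjusted 95% interval of the vehicle difference lay above 0 for Shmt2, Mthfd2, Phgdh (0.07 to 0.37) and Pycr1 (0.0048 to 0.44) and included 0 for the other 6 members.

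Per kilobase of exon, levels could be compared between genes, within limits. Of the 37-base words of Phgdh, 53.7% are shared with other loci. Opposite-strand genes overlap 26.1% of the exon bases of Psph and 17.3% of those of Aldh1l2. The levels and ranks of Phgdh, Psph and Aldh1l2 are therefore uncertain. With vehicle, Mthfd2 and Asns were the most abundant members in Adar-null cells, at 321 ± 4.9 and 320.3 ± 8.74 CPM per kb, which do not differ beyond their spread. In vehicle-treated control cells, Asns had 311 ± 9.44 and Mthfd2 293 ± 11.8 CPM per kb (SD, n = 3). Shmt2 came next in both, at 233 ± 11.1 CPM per kb in Adar-null and 212 ± 3.36 CPM per kb in control cells. Psat1 (119 and 113 CPM per kb in Adar-null and control cells) and Aldh18a1 (114 and 109 CPM per kb) were next and did not differ beyond their spread. Aldh1l2 (65.6 and 69.0 CPM per kb), Psph (63.8 and 64.5 CPM per kb), Phgdh (35.1 and 30.4 CPM per kb) and Cth (32.7 and 29.5 CPM per kb) followed. Pycr1 was lowest, at 7.29 ± 0.414 CPM per kb in Adar-null and 6.25 ± 0.349 CPM per kb in vehicle-treated control cells. With IFNb, Aldh1l2 had rank 4 of 10 in Adar-null cells (106 ± 3.36 CPM per kb) and rank 8 of 10 in control cells (6.73 ± 0.473 CPM per kb).

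Members that belong together by role were not always the nearest in pattern. Likeness was measured as the root mean square difference, over the 4 groups, of log2 group means centred on each gene's own mean. Among all tested genes, the pattern nearest to Asns was that of Psph (0.057 log2 units), nearest to Psph and to Aldh18a1 was each the other (0.051), and nearest to Pycr1 was Cth (0.051). For Cth it was Cyb5r2 (0.041), for Aldh1l2 it was Chac1 (0.044) followed by Cebpb (0.094), and for Mthfd2 it was Calcrl (0.14) followed by Gpt2 (0.16). The second nearest to Asns was Eif4ebp1 (0.085), to Aldh18a1 it was Asns (0.086), and to Pycr1 it was Cyb5r2 (0.089). Shmt2 was nearest to Dbndd1 (0.044) and Eef2k (0.055), Psat1 to Mmp11 (0.02) and Aktip (0.075), and Phgdh to Taf15 (0.12) and 0610009L18Rik (0.12). Some of these distances are below the errors of the genes. The SEs of the IFNb responses in Adar-null and control cells were 0.204 and 0.236 for Mmp11, and 0.238 and 0.306 for Dbndd1. Within 0.25 log2 units lay 75 genes for Psat1, 38 for Phgdh and 29 for Shmt2, so such ranks are loose. Within the 10, the nearest neighbour was Shmt2 for both Phgdh (0.15) and Psat1 (0.22), Phgdh for Shmt2 (0.15), Aldh18a1 for Mthfd2 (0.17) and Cth for Aldh1l2 (0.3). These are descriptions over 4 group means from the same libraries.

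Of the isoenzymes and close relatives of the members given here, Mthfd1l and Asnsd1 fell in control cells, Mthfd1 and Aldh1l1 rose there, and Shmt1, Pycrl and Cbs did not pass the test. Shmt1, the cytosolic counterpart of Shmt2, averaged 8.33 ± 0.859 CPM in IFNb-treated Adar-null cells, 39.3 ± 2.41 CPM in vehicle-treated Adar-null cells, 36.4 ± 2.35 CPM in IFNb-treated control cells and 34.6 ± 2.70 CPM in vehicle-treated control cells (SD, n = 3 each). It fell in Adar-null cells (-2.23 ± 0.14) and was at 0.07 ± 0.09 in control cells (adjusted p = 0.543, edgeR), so its interaction, -2.30 ± 0.17, had the sign opposite to that of Shmt2. Aldh1l1, the cytosolic counterpart of Aldh1l2, averaged 9.56 ± 1.76 and 13.4 ± 1.64 CPM in IFNb-treated and vehicle-treated Adar-null cells, and 37.3 ± 2.96 and 12.3 ± 1.10 CPM in IFNb-treated and vehicle-treated control cells. Aldh1l1 fell in Adar-null cells (-0.49 ± 0.15) and rose in control cells (1.603 ± 0.13), the reverse of Aldh1l2 in both, and its interaction was -2.10 ± 0.20 (adjusted p = 7.02e-18).

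Of the relatives of Mthfd2, cytosolic Mthfd1 was at -0.12 ± 0.07 in Adar-null cells (adjusted p = 0.113, edgeR) and rose in control cells (0.51 ± 0.07). Mitochondrial Mthfd1l, which makes formate, fell in both, at -0.83 ± 0.05 in Adar-null and -0.71 ± 0.04 in control cells, with an interaction of -0.11 ± 0.06 (adjusted p = 0.117). Mthfd2l was too low to be tested. Pycrl, a relative of Pycr1, was at 0.12 ± 0.10 in Adar-null and -0.01 ± 0.10 in control cells and passed in neither. Cbs, the enzyme before Cth in transsulfuration, was at 1.92 ± 1.12 CPM in IFNb-treated Adar-null cells and 1.44 ± 0.380 CPM in IFNb-treated control cells and was called in no comparison. Asnsd1, whose protein is related to asparagine synthetase, was at -0.35 ± 0.06 in Adar-null and -0.50 ± 0.06 in control cells. Its exons share 81.7% of their bases with Asdurf and Gm28551 on the same strand, so its count is uncertain. Against 1.5-fold, the Adar-null fall of Aldh1l1 (adjusted p = 0.963, edgeR), the control rise of Mthfd1 (adjusted p = 1) and both falls of Asnsd1 (adjusted p = 1) were not called.

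**Figure D3:**
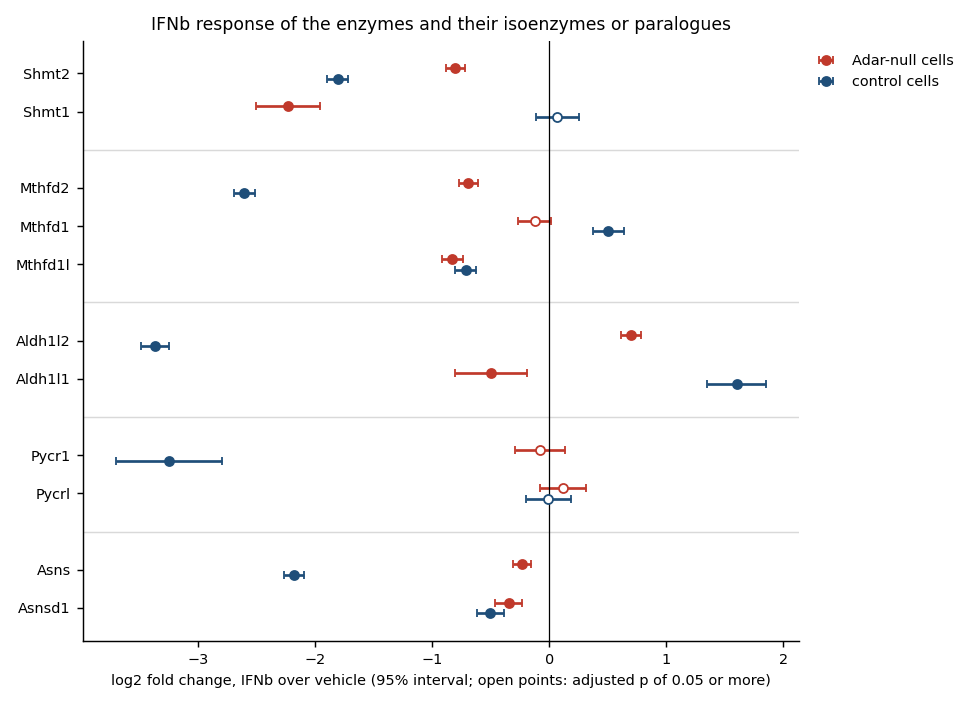
Log2 fold change of IFNb over vehicle, with 95% intervals, for members and their isoenzymes in Adar-null and control cells. The control value is -1.81 for Shmt2 against 0.07 for Shmt1, and -3.36 for Aldh1l2 against 1.603 for Aldh1l1.

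Other genes from the same metabolic pathways were counted beside the enzymes. In 5 lists of related genes (folate cycle, use of glycine and serine, methionine and transsulfuration, proline and ornithine, and asparagine, aspartate, glutamate and glutamine), 53 of 65 genes could be tested. In Adar-null cells 13 were higher and 26 lower with IFNb, where 36.6% and 35.7% of all tested genes were. In control cells 13 were higher and 20 lower, against 26.5% of all tested genes in each direction, so the number higher is near that background. Against 1.5-fold these counts became 5 and 14 in Adar-null cells, where 1517 and 1784 of all 11561 tested genes were called. In control cells they became 3 and 3, where 577 and 403 of all tested genes were called. The medians of these 53 were -0.15 in Adar-null and -0.09 in control cells. Among them 10 fell at least 2-fold in Adar-null cells, where 11.7% of tested genes did and 0 of the 10 enzymes. In control cells 1 did, against all 10 enzymes. That gene was Gpt2, a mitochondrial alanine transaminase, at -0.71 ± 0.05 in Adar-null and -3.05 ± 0.07 in control cells. For the interaction 11 of the 53 were higher and 19 lower, where 28.6% and 30.7% of all tested genes were, so the counts are not far from the background. Against 1.5-fold they became 5 and 9, where 1038 and 1554 of all 11561 tested genes were called. The median interaction of the 53 was -0.11. With vehicle, 2 of the 53 were higher and 2 lower in Adar-null cells, where 2.47% and 4.05% of all tested genes were.

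A list of ATF4, its partners, its targets among regulators and the kinases upstream of it was counted in the same way. Of these 16 genes, 12 rose and 1 fell in IFNb-treated Adar-null cells, where 36.6% and 35.7% of all tested genes did, with a median of 0.60. Against 1.5-fold, 7 were called higher and 0 lower there, where 1517 and 1784 of all 11561 tested genes were. In control cells 2 rose and 12 fell, where 26.5% of all tested genes did in each direction, with a median of -1.70. Against 1.5-fold 1 was higher and 11 lower in control cells, where 577 and 403 of all 11561 tested genes were. The interaction was higher for 12 of 16, where 28.6% of all tested genes were. Atf4 mRNA itself was at 0.02 ± 0.04 in Adar-null cells (adjusted p = 0.665, edgeR) and fell in control cells (-2.01 ± 0.04), with averages of 626 ± 22.4 and 618 ± 4.46 CPM in IFNb-treated and vehicle-treated Adar-null cells and 149 ± 1.67 and 599 ± 7.19 CPM in IFNb-treated and vehicle-treated control cells. Trib3, a pseudokinase that is an ATF4 target and inhibitor, rose in Adar-null cells (0.99 ± 0.04) and fell in control cells (-4.49 ± 0.09). Chac1, which degrades glutathione, was at 0.65 ± 0.05 in Adar-null and -3.33 ± 0.09 in control cells, close to the values of Aldh1l2. Ddit3, the stress-induced factor CHOP, was at 1.42 ± 0.05 in Adar-null and -0.55 ± 0.06 in control cells. Thus Atf4, Trib3, Chac1 and Ddit3 each fell in control cells, as all 10 enzymes did, while in Adar-null cells 3 of these 4 rose but only 1 of the 10 enzymes, Aldh1l2. Against 1.5-fold, the rise of Chac1 in Adar-null cells (adjusted p = 0.0794, edgeR) and the fall of Ddit3 in control cells (adjusted p = 1) were not called.

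**Figure D4:**
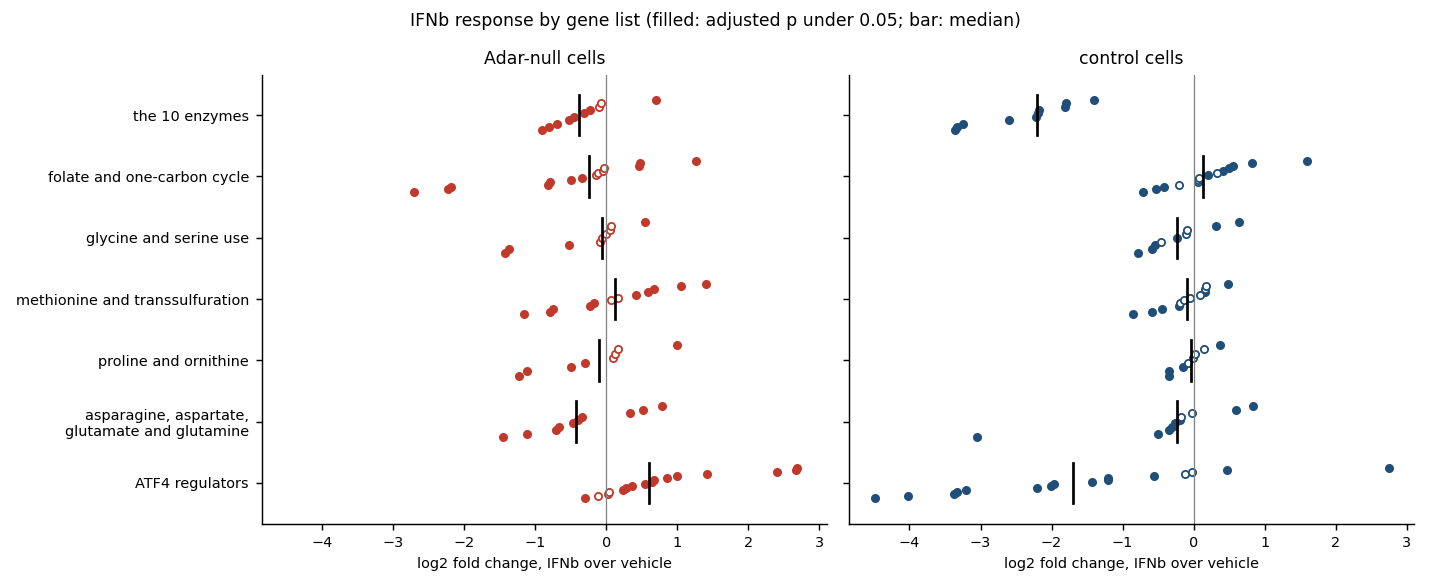
Log2 fold change of IFNb over vehicle for every tested gene of the 10 enzymes, the 5 related metabolic lists and the ATF4 regulators, in Adar-null and control cells. The enzymes have a median of -0.39 in Adar-null and -2.21 in control cells, the related lists together -0.15 and -0.09, and the ATF4 regulators 0.60 and -1.70.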

How the data were processed

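RNA of 12 B16 libraries (ribosomal RNA depleted, directional, paired-end, per the labels' protocols) was used. The authors deposited whole-number read counts per gene symbol, not normalised. Per the submitters' processing notes reads were handled with HTSeq 0.6.1p1, Bowtie2 2.2.4, Trimmomatic 0.33 and DESeq2 on build mm10. Whether counting used strand, and on which annotation, is not given in the sources used here, so reads of overlapping antisense genes may not have been separated.

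From the deposited counts, filterByExpr by group left 11561 genes. Libraries were scaled by TMM, and edgeR 4.0.16 (R 4.3.3) was fitted once over all 12 libraries (glmQLFit with robust estimation, glmQLFTest, 1 term per group). A call needed an adjusted p under 0.05 (Benjamini-Hochberg over all genes tested), in each of 5 comparisons, the last being the interaction (Adar-null response minus control response). The script was tested on simulated data. Errors of log2 values are Wald standard errors not below counting error, and those of CPM are SDs over 3 libraries; both reflect these libraries alone. The common coefficient of biological variation was 0.0397, and the depth of 5375649 to 7153480 counts leaves the 3 Pycr1 counts under IFNb in control cells (12 to 19) the least precise. Chi-square per degree of freedom between replicates was 1.47 to 3.23, so no library was a copy of another.

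Alternatives were RLE, upper-quartile and library-size scaling, Rn45s left out, no low-count filter, a replicate block, a test against 1.5-fold, DESeq2 1.42.0, limma-voom 3.58.1, only the groups compared, and each library left out. Positions and exon lengths are from GENCODE (GRCm38), promoters from RefSeq (GRCm38.p6). The members, the related lists and the promoter motif were chosen with earlier results of these data known. All 10 members are named, and from the lists their isoenzymes, Atf4, Ddit3, Trib3, Chac1, Adar and, for each member, the 2 genes and the member nearest in pattern; any other gene was chosen after its values were seen. Some genes of the lists are not reported here. An interferon-gamma arm named in the design text is not analysed here.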

Additional observations from a re-analysis of the deposited data

Results flagged for a closer look

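For all 10 enzymes the IFNb response differed between the genotypes by the test of that difference (interaction term of the edgeR fit, adjusted over 11561 genes). That is why they are listed in this section. Of all tested genes, 28.6% were called higher and 30.7% lower by this test, so a called difference alone is not particular to the enzymes. The 10 genes themselves were picked by symbol, with earlier results of these data known. The difference, Adar-null response minus control response on the log2 scale, was 4.06 for Aldh1l2, 3.24 for Cth, 3.17 for Pycr1, 1.94 for Asns, 1.91 for Mthfd2, 1.88 for Psph, 1.76 for Aldh18a1, 1.28 for Phgdh, 1.01 for Shmt2 and 0.484 for Psat1. For Aldh1l2 the 2 responses had opposite signs, 0.70 in Adar-null and -3.36 in control cells, and both passed the test. For Cth the responses were -0.10 in Adar-null cells, which did not pass, and -3.33 in control cells. For Psat1 they were -0.91 in Adar-null and -1.40 in control cells, the smallest difference of the 10. No group has 4 libraries, so no library was tested as standing apart from its group.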

How the results depend on the processing

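Of the log2 fold changes of single members recomputed under the alternatives, 1062 kept their direction and their side of the threshold, 18 lost the call, 8 gained one and 2 changed sign. All 10 control falls stayed called under every alternative run, and so did 9 of the 10 interactions; that of Psat1 was lost against a 1.5-fold change. Against 1.5-fold, 4 members were called in Adar-null cells (3 of them lower) in place of 8 (7 lower), with Asns, Phgdh, Psph and Aldh18a1 lost, and 0 with vehicle in place of 2. With no low-count filter 0 members were called with vehicle. Leaving out 1 library gave 0 to 3 members called with vehicle, and 8 to 9 in the Adar-null response. The vehicle difference of Psph, -0.02 and not called, ran from -0.046 to 0.0041 over the libraries left out. Counts over all genes moved most in the vehicle comparison: 285 higher and 468 lower became 95 and 194 with DESeq2, 0 and 17 against 1.5-fold, 124 and 269 without the first Adar-null vehicle library, 158 and 305 without the second, and 88 and 220 without the second control vehicle library. Against 1.5-fold the other counts over all genes were 1517 higher and 1784 lower in the Adar-null response (4232 and 4132 in the main test), 577 and 403 in the control response (3067 and 3066), 1435 and 1871 under IFNb (4203 and 4185), and 1038 and 1554 for the interaction (3308 and 3547). With library size alone the control response split into 2469 higher and 3796 lower. The causes were not tested, beyond the tighter fold asked for. With the replicate block, 8, 10, 10, 2 and 10 members were called in the Adar-null response, the control response, the genotype difference under IFNb and with vehicle, and the interaction, as without it. Same-numbered libraries did not deviate together (0 of 18 pairs over 0.1, correlations -0.1 to 0.0618). Of the 12 libraries, 3 were closest to their own number. No effect shared by number was thus visible in the counts. Whether same-numbered samples were handled together is not stated, and this check cannot show it. Depth limits Pycr1 most, with 12 to 19 counts in the control libraries with IFNb.

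For the isoenzymes, the ATF4 genes and the other related genes given values, 949 of the recomputed log2 changes kept direction and side, 9 lost a call (all against 1.5-fold), 6 gained one and 10 changed sign, none of them called. With library size alone Atf4 was at -0.072 in Adar-null cells and Shmt1 at -0.0042 in control cells, both not called. Over the libraries left out, Atf4 in Adar-null cells ran from -0.0082 to 0.039, Cbs from -0.26 to 0.54 in Adar-null and -0.32 to 0.13 in control cells and -0.13 to 0.67 for the interaction, and Pycrl in control cells from -0.072 to 0.071. Mthfd1 passed in Adar-null cells with library size alone (-0.21) and without the third Adar-null IFNb library (-0.18), and the interaction of Mthfd1l without the third Adar-null IFNb library (-0.17) or the second control IFNb library (-0.16). That of Asnsd1 passed with upper-quartile scaling (0.18) and without the third Adar-null vehicle library (0.19). Against 1.5-fold, the related metabolic lists held 5 higher and 14 lower genes in the Adar-null response, where 1517 and 1784 of 11561 tested genes were called. In the control response they held 3 higher and 3 lower, where 577 and 403 of all tested genes were called. Of the ATF4 regulators, 7 were higher in Adar-null cells in that test.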

Other observations

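Among other genes around folate and glutathione, Tyms, Gclc and Gclm also changed with IFNb; these 3 genes were chosen from the related lists after their values were seen. Tyms, thymidylate synthase, averaged 2.56 ± 0.877 CPM in IFNb-treated Adar-null cells and 17.3 ± 0.786 CPM in vehicle-treated Adar-null cells, against 19.6 ± 1.51 CPM in IFNb-treated control cells and 13.4 ± 2.62 CPM in vehicle-treated control cells (SD, n = 3 each). It fell in Adar-null cells (log2 change -2.71 ± 0.23) and rose in control cells (0.55 ± 0.14). The control rise of Tyms was not called against a change of 1.5-fold.

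Gclc and Gclm, the subunits of the first enzyme of glutathione synthesis, rose in Adar-null cells (1.40 ± 0.08 and 1.05 ± 0.11). In control cells Gclc was at 0.16 ± 0.09 (adjusted p = 0.114, edgeR) and Gclm fell (-0.44 ± 0.12). The control fall of Gclm was likewise not called against 1.5-fold.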
